A study of Homo sapiens with 15 samples.

Results

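The high mobility group (HMG) genes were followed through 15 mRNA-seq libraries of K562 cells. The set was chosen by name and holds 3 HMGB genes (HMGB1, HMGB2 and HMGB3), 2 HMGA genes (HMGA1 and HMGA2) and 5 HMGN genes (HMGN1 to HMGN5), which are 10 of the 60649 genes in the count table. K562, a leukaemia line with the BCR-ABL fusion, is widely used as a model of chronic myeloid leukaemia. Its cells were left untreated or were exposed for 24 h to martinostat, an inhibitor of histone deacetylases, at a concentration of 0.15, 0.25, 0.5 or 1 µM, and each of the 5 groups had 3 libraries labelled as biological replicates. All libraries came from this single line, and whether the untreated cells received a vehicle is not given in the sources used here. The study also measured HMGB1 protein outside the cells, which is not analysed here.

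HMG proteins are among the most abundant chromatin proteins after the histones. HMGB proteins bend DNA with their HMG boxes, HMGA proteins hold the minor groove of AT-rich DNA with AT hooks, and HMGN proteins bind the nucleosome itself and counteract linker histones. HMGB1 has a further role outside the nucleus: dying or stressed cells release it, and receptors on other cells read it as an alarm signal.

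Library totals ran from 23755510 to 32805574 counts. Levels are CPM, counts scaled to library sizes adjusted with TMM factors, and a gene was called changed when edgeR's quasi-likelihood test gave a Benjamini-Hochberg adjusted p under 0.05 over 23711 tested genes. All 10 genes passed the low-count filter. Of these, 9 had at least 422 counts in every library, while HMGA2 had 98 counts over the 15 libraries and at least 10 in only 3 of them, all treated. All 10 markers of the K562 line reached 10 CPM in untreated cells, with a sum of 3996 to 4333 CPM per library, and 8 of them did with 1 µM, with a sum of 899 to 1020.0 CPM. Of 11 markers of other cell types 6 were under 1 CPM in untreated cells and 2 were above 10 CPM, EPCAM at 141 ± 9.54 and COL1A2 at 18.9 ± 2.12 CPM. Replicate 3 of the 0.25 µM group and replicate 3 of the 0.5 µM group lay apart from the other libraries on the third principal component, with scores of 70.1 and 75.4 that were above those of the other 13, and every member was also computed without both. Over all tested genes the log2 fold change against untreated cells had a median of 0.28, 0.32, 0.34 and 0.32 in order of dose, and 0.64, 0.84, 0.72 and 0.67 when libraries were scaled by their totals, so a value of 0 is not the centre of the genes.

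The sequence before the start site is shown for 4 members that followed different courses: HMGB1 and HMGB3 were lower at every dose, HMGN2 was lowest at the low doses, and HMGN4 was higher at low doses and lower at high ones. Each run holds the 250 bases before the start of the main (MANE) transcript, 5′ to 3′ on the strand of the gene, from RefSeq on GRCh38.p14. Those of HMGB1 and HMGB3 lie within the annotated gene, which other transcripts extend upstream. CCAAT boxes on either strand (CCAAT or ATTGG) are in capitals. The windows were chr13:30465937-30466186 on the minus strand for HMGB1, chrX:150983085-150983334 on the plus strand for HMGB3, chr1:26472190-26472439 on the plus strand for HMGN2 and chr6:26538116-26538365 on the plus strand for HMGN4.
HMGB1: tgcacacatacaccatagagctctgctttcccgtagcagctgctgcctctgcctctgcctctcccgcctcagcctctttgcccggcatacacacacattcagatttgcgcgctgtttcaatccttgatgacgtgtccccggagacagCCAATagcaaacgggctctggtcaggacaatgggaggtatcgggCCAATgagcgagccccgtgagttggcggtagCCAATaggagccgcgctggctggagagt
HMGB3: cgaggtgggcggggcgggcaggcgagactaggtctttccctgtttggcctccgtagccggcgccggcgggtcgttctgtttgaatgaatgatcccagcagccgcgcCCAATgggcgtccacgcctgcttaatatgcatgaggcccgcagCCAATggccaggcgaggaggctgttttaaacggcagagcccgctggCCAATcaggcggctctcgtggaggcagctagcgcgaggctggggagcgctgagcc
HMGN2: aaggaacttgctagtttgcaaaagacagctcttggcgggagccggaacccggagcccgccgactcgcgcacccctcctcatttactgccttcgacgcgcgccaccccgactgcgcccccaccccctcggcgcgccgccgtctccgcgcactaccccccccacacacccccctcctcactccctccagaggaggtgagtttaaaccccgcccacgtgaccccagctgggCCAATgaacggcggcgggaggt
HMGN4: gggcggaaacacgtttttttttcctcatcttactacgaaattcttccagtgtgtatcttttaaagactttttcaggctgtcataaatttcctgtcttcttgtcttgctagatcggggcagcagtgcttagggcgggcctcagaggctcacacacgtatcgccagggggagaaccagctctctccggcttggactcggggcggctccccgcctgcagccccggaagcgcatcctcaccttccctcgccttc
The HMGB1 and HMGB3 windows held 3 CCAAT boxes each, that of HMGN2 held 1 and that of HMGN4 held 0. A window was read for 8 of the 10 members, all but HMGB2 and HMGA2, and 5 of the 8 held a CCAAT box: HMGN1 and HMGN3 had 2 each, and HMGA1 and HMGN5 had 0. HMGA1 and HMGN5, with 0 boxes, and HMGN1, with 2, were lower at every dose, as were HMGB1 and HMGB3. A link between the number of boxes and the course was not tested. Of 35116 promoter windows of the same length 32.0% held at least 1 and 2.93% held 3 or more. The motif TTTGAA, on either strand, was in the HMGB3 window alone among the 8 and in 13.3% of all windows. GGGCGG, on either strand, was in 5 of the 8 and in 42.6% of all windows, and TATAAA, on either strand, was in 0 of the 8 and in 10.7% of all windows. These are matches of letters and no measure of binding.

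Most HMG genes were lower in treated than in untreated cells. With 0.15 µM 8 of the 10 genes were called, beside 51.2% of all tested genes: HMGN4 was higher and 7 genes were lower, beside 31.9% and 19.4% of all genes. With 0.25 µM 9 were called (all genes 62.3%), 2 of them higher (37.4%) and 7 lower (24.8%). With 0.5 µM 9 were called (66.9%), 0 of them higher (39.4%) and 9 lower (27.6%). With 1 µM 9 were called (66.2%), again 0 higher (38.8%) and 9 lower (27.5%). The library ranges of dose and control did not overlap for 8, 9, 10 and 9 genes in order of dose, beside 63.2%, 67.5%, 69.9% and 74.9% of all genes. Called and over 2-fold lower were 3, 5, 5 and 5 of the 10 genes, beside 5.58%, 13.1%, 18.3% and 18.3% of all genes, and called and over 2-fold higher were 0, 1, 0 and 0, beside 27%, 32.4%, 33.9% and 33.3%. The 10 genes had a median of -0.72, -1.14, -0.99 and -0.99 on the log2 scale. When libraries were scaled by their totals, 2, 2, 1 and 0 were called higher and 5, 6, 7 and 9 lower in order of dose, beside 40.4%, 49.3%, 46.8% and 45.6% of all genes higher and 8.93%, 12.9%, 19.9% and 20.1% lower. These 4 comparisons share the 3 untreated libraries. In bulk RNA fewer cells that express a gene and less of its RNA per cell cannot be told apart.

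**Figure D1:**
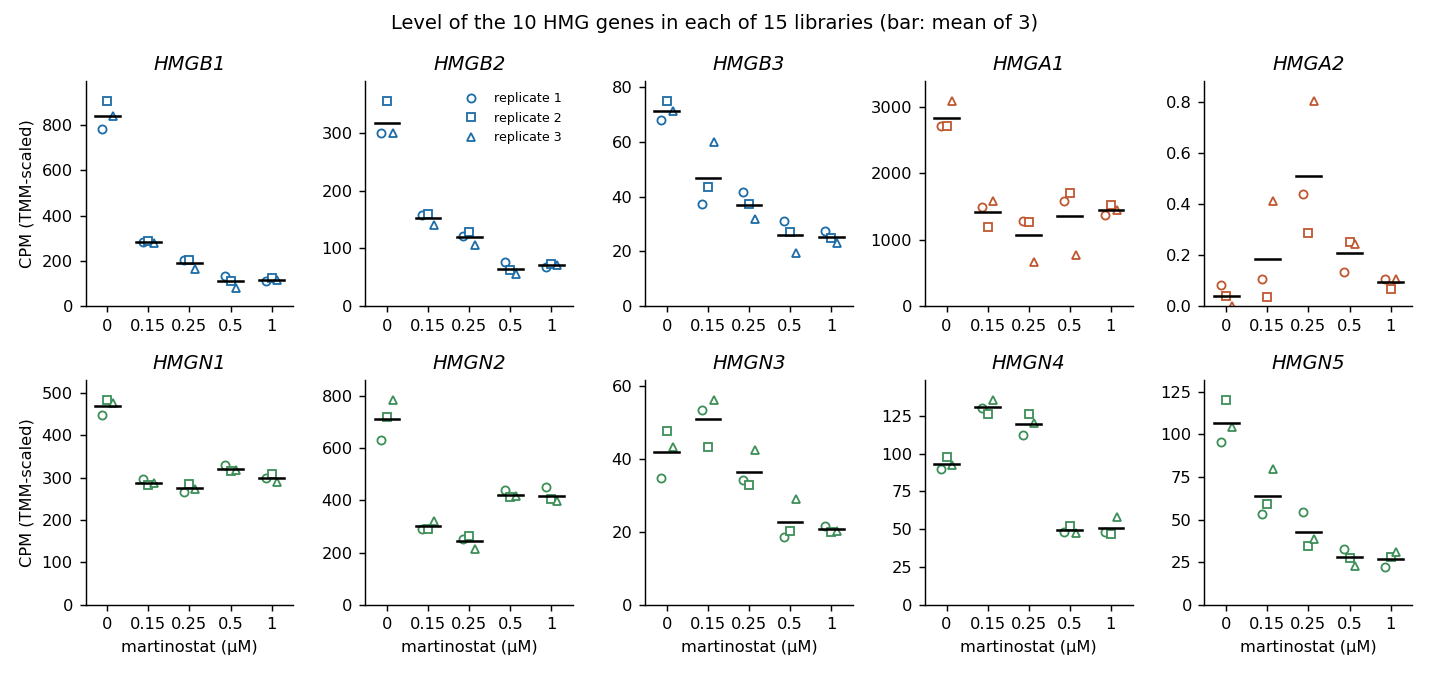
Level of each HMG gene (CPM with TMM library sizes, linear axes from 0) against martinostat concentration (µM), with 1 symbol per library for replicates 1, 2 and 3 and a bar at the mean of 3. HMGB1, HMGB2 and HMGN5 step down to 0.5 µM, HMGN4 sits above untreated cells with 0.15 and 0.25 µM and below them with 0.5 and 1 µM, and HMGA1 is low in replicate 3 of the 0.25 and 0.5 µM groups, at 662 and 775 CPM.

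HMGB1 had the lowest log2 fold change of the 10 genes at every dose (chromosome 13 from 30456704 to 30617597 on the minus strand, ENSG00000189403.15, hg38). The untreated libraries read 785, 905 and 839 CPM. With 0.15 µM HMGB1 read 282, 288 and 278 CPM, and with 0.25 µM 206, 204 and 163 CPM. With 0.5 µM it read 134, 112 and 81.4 CPM, and with 1 µM 109.9, 123 and 115 CPM. Every treated library was below every untreated one, the groups of 0.15, 0.25 and 0.5 µM did not overlap each other, and those of 0.5 and 1 µM did. The log2 fold change was -1.58 ± 0.17, adjusted p = 2.98e-07 with 0.15 µM (± SE), and -2.14 ± 0.17, adjusted p = 3.91e-09 with 0.25 µM. It was -2.95 ± 0.18, adjusted p = 4.33e-11 with 0.5 µM, and -2.86 ± 0.17, adjusted p = 6.19e-11 with 1 µM, where 13.8% of the untreated mean was left. Each of these calls was kept in all 27 alternative settings.

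HMGB2, a close relative of HMGB1 that is most abundant in dividing cells, was lower by less (chromosome 4 from 173331376 to 173334432 on the minus strand, ENSG00000164104.12). Untreated libraries read 299, 354 and 300.04 CPM, those with 0.15 µM 158, 159.7 and 139.8 CPM and those with 0.25 µM 122, 129 and 107 CPM. With 0.5 µM the values were 75.7, 63.3 and 54.8 CPM, and with 1 µM 67.7, 73.7 and 70.9 CPM. Each treated library was below the untreated range, and among neighbouring doses only 0.5 and 1 µM overlapped. The log2 fold changes in order of dose were -1.06 ± 0.14, -1.41 ± 0.14, -2.30 ± 0.15 and -2.17 ± 0.15, with adjusted p = 5.72e-06, 1.01e-07, 1.29e-10 and 2.63e-10. At 1 µM 22.3% of the untreated mean was left.

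HMGB3, the X-linked HMGB gene (chromosome X from 150980509 to 150990771 on the plus strand, ENSG00000029993.15), went from 71.3 ± 3.35 CPM (SD, n = 3) in untreated cells to 46.8 ± 11.6, 37.0 ± 5.03, 25.8 ± 5.98 and 25.1 ± 2.24 CPM in order of dose. Its log2 fold changes were -0.61 ± 0.18, -0.95 ± 0.18, -1.47 ± 0.19 and -1.51 ± 0.19, and all 4 were called. The call at 0.15 µM was lost without replicate 1 of that dose (-0.46, adjusted p = 0.0667) and with library totals (-0.25, adjusted p = 0.182).

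The balance between HMGB2 and HMGB1 was read within each library as the log2 ratio of their CPM, with 0.5 CPM added to each. In untreated libraries it was -1.39, -1.35 and -1.48. With 0.15 µM it was -0.83, -0.85 and -0.99, and with 0.25 µM -0.75, -0.66 and -0.61. With 0.5 µM it was -0.81, -0.82 and -0.57, and with 1 µM -0.69, -0.74 and -0.70. Every treated library was above the 3 untreated ones, by 0.52, 0.73, 0.67 and 0.70 on average in order of dose. A two-sided exact permutation test of 3 against 3 libraries gave p = 0.1 at each dose, the smallest it can give (adjusted p = 0.1 over 8 such tests), so that test cannot reach 0.05 with 3 libraries a group.

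HMGA1, an AT-hook protein abundant in embryonic and malignant cells, had the highest level per kb of the family in every group and was lower at every dose (chromosome 6 from 34236873 to 34246231 on the plus strand, ENSG00000137309.20). Untreated libraries read 2712, 2721 and 3085 CPM, and those with 0.15 µM 1491, 1195 and 1592 CPM. With 0.25 µM it read 1284, 1266 and 662 CPM, with 0.5 µM 1583, 1707 and 775 CPM, and with 1 µM 1372, 1530.2 and 1446 CPM. All treated libraries were below the untreated range, and the lowest values of the 0.25 and 0.5 µM groups were those of the 2 libraries that lie apart. The log2 fold changes were -0.99 ± 0.26, -1.41 ± 0.27, -1.07 ± 0.26 and -0.97 ± 0.26, with adjusted p = 0.00401, 0.000156, 0.00156 and 0.00330, and each call was kept in all 27 alternative settings.

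HMGA2, the fetal AT-hook protein and a known target of the let-7 microRNAs, was close to absent (chromosome 12 from 65824460 to 65966291 on the plus strand, ENSG00000149948.14). HMGA2-AS1 covers 2.55% of its exon bases on the other strand. The untreated libraries held 2, 1 and 0 counts, those with 0.15 µM 3, 1 and 12, those with 0.25 µM 13, 8 and 32, those with 0.5 µM 3, 6 and 9 and those with 1 µM 3, 2 and 3. Only the 0.25 and 0.5 µM groups lay wholly above the untreated range, and the highest level, in replicate 3 of the 0.25 µM group, was 0.801 CPM. Summed over 3 libraries and per adjusted library size, 53 against 3 counts at 0.25 µM are a ratio of 13.8 (exact 95% interval 4.46 to 68.9), and 8 against 3 counts at 1 µM a ratio of 2.36 (exact 95% interval 0.566 to 13.8), which cover counting error only. HMGA2 was called higher at 0.25 µM (fitted log2 fold change 3.56 ± 0.95, adjusted p = 0.00314). HMGA2 entered this test only through the 3 libraries with at least 10 counts, all treated, so filter and call rest on the same counts. With 10 counts required in every library, or with only the libraries compared, HMGA2 failed the filter at 0.25 µM and was not tested. Replicate 3 of the 0.25 µM group, a library that lies apart, held 32 of the 53 counts. Without it the value was 3.08, adjusted p = 0.0207. The value was 3.01, adjusted p = 0.0202 without untreated replicate 3, and 4.44, adjusted p = 0.00589 without untreated replicate 1. HMGA2 was not called at 0.15 µM (adjusted p = 0.0932), 0.5 µM (adjusted p = 0.0528) or 1 µM (adjusted p = 0.370). A call appeared at 0.15 µM without replicate 2 of that dose (adjusted p = 0.0458). At 0.5 µM one appeared without untreated replicate 1 (adjusted p = 0.0443), without replicate 2 or 3 of the 0.15 µM group (adjusted p = 0.0457 and 0.0358) and with library totals, RLE factors or TMM factors from genes over 10 CPM (adjusted p = 0.0277, 0.0465 and 0.0251).

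The log2 ratio of HMGA2 to HMGA1 was higher than in untreated libraries by 1.31, 2.34, 1.54 and 1.11 in order of dose with 0.5 CPM added, each at the smallest exact permutation p of 0.1. With 0.1 CPM added the differences were 1.83, 3.54, 2.31 and 1.47. The size of this ratio depends on the added value, since HMGA2 was below 0.5 CPM in all libraries but replicate 3 of the 0.25 µM group. The ratio also rises when HMGA1 falls, and the log2 fold changes of HMGA1 were -0.99, -1.41, -1.07 and -0.97 in order of dose. HMGA2 itself was called higher only at 0.25 µM, so a higher ratio does not show a rise of HMGA2.

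**Figure D2:**
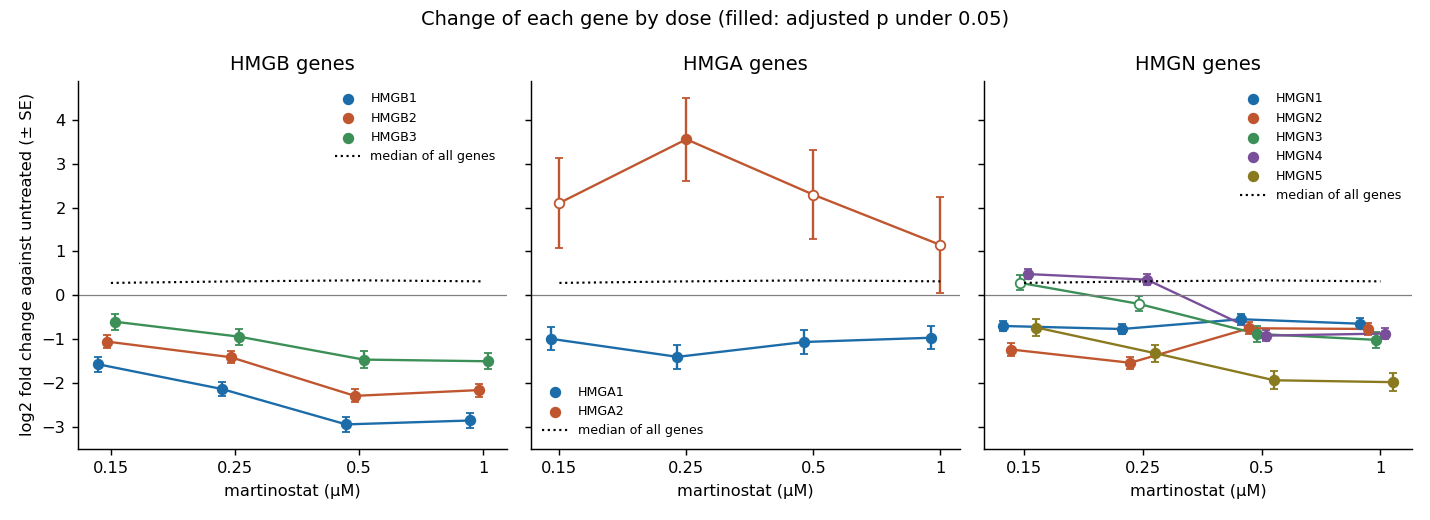
Log2 fold change against untreated cells (± SE of the edgeR fit, 3 libraries per group) by martinostat concentration (µM) for the HMGB, HMGA and HMGN genes. Filled symbols are called, open symbols are not, and the dotted line is the median of all tested genes. HMGB1 is the lowest line at every dose, and the lines of HMGN2 and HMGN4 cross between 0.25 and 0.5 µM.

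Among the HMGN genes, HMGN2 and HMGN1 had the highest levels per kb in untreated cells, and both were lower at every dose. HMGN1 (chromosome 21 from 39342315 to 39349647 on the minus strand, ENSG00000205581.11) went from 469 ± 18.7 CPM (SD, n = 3) to 288 ± 7.59, 275 ± 10.0, 321 ± 6.69 and 299 ± 9.23 CPM. Its log2 fold changes of -0.70 ± 0.12, -0.77 ± 0.12, -0.55 ± 0.12 and -0.65 ± 0.12 were all called. With library totals those at 0.25 µM (-0.24, adjusted p = 0.0789) and 0.5 µM (-0.17, adjusted p = 0.218) were not.

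HMGN2 (chromosome 1 from 26472440 to 26476642 on the plus strand, ENSG00000198830.11) was lowest at the low doses and stood higher at the high ones. Untreated libraries read 632, 719.8 and 784 CPM, those with 0.15 µM 289.5, 292 and 323 CPM and those with 0.25 µM 254, 265 and 215 CPM. With 0.5 µM it read 438, 412 and 417 CPM, and with 1 µM 453, 404 and 396 CPM. All treated libraries were below the untreated range, and each library of the 2 high doses was above each of the 2 low ones. The log2 fold changes were -1.24 ± 0.14, -1.54 ± 0.14, -0.75 ± 0.14 and -0.77 ± 0.14, with adjusted p = 7.37e-07, 2.84e-08, 0.000104 and 8.36e-05. From 0.25 to 0.5 µM HMGN2 was higher by 0.79 ± 0.14, adjusted p = 0.000259, and from 0.15 to 1 µM by 0.47 ± 0.14, adjusted p = 0.00997. The second of these calls was lost without replicate 1 of the 1 µM group (0.41, adjusted p = 0.0587).

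HMGN4, a near relative of HMGN2, took another course (chromosome 6 from 26538366 to 26546933 on the plus strand, ENSG00000182952.5). Untreated libraries read 89.8, 97.9 and 92.4 CPM, those with 0.15 µM 130.2, 126 and 135 CPM and those with 0.25 µM 112, 126 and 119.99 CPM. With 0.5 µM it read 48.1, 52.1 and 47.6 CPM, and with 1 µM 47.9, 47.0 and 57.8 CPM. The libraries of the low doses were all above, and those of the high doses all below, the untreated range. The log2 fold changes were 0.48 ± 0.12, 0.36 ± 0.12, -0.92 ± 0.12 and -0.87 ± 0.12, with adjusted p = 0.00273, 0.0166, 2.34e-06 and 4.5e-06, where the median of all genes was 0.28 and 0.32 at the low doses. The call at 0.25 µM was lost without replicate 2 of that dose (0.31, adjusted p = 0.0663), without untreated replicate 1 (0.32, adjusted p = 0.0668) or 3 (0.34, adjusted p = 0.0578), and with no low-count filter (0.35, adjusted p = 0.0967).

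HMGN3, a member with splice forms that differ at the C-terminal end (chromosome 6 from 79201245 to 79234689 on the minus strand, ENSG00000118418.14), has 10.7% of its exon bases under HMGN3-AS1 on the other strand, and whether counting used strand is not given in the sources used here. It was at 41.9 ± 6.52 CPM in untreated cells and 51.0 ± 6.74, 36.6 ± 5.25, 22.7 ± 5.59 and 20.7 ± 0.856 CPM in order of dose. It was not called at 0.15 µM (0.28 ± 0.17, adjusted p = 0.184) or 0.25 µM (-0.20 ± 0.17, adjusted p = 0.343), and was lower at 0.5 µM (-0.88 ± 0.18, adjusted p = 0.000231) and 1 µM (-1.02 ± 0.18, adjusted p = 5.41e-05). With library totals it was called higher at 0.15 µM (0.64, adjusted p = 0.0248), was above 0 at 0.25 µM (0.35) and was not called at 0.5 µM (-0.47, adjusted p = 0.0791). HMGN5, the X-linked member with a long acidic tail (chromosome X from 81113699 to 81201913 on the minus strand, ENSG00000198157.11), was at 107 ± 12.4 CPM in untreated cells and at 64.0 ± 13.9, 42.6 ± 10.6, 27.8 ± 5.12 and 27.0 ± 4.37 CPM in order of dose. Its log2 fold changes were -0.74 ± 0.20, -1.32 ± 0.20, -1.94 ± 0.20 and -1.98 ± 0.20, all called, and the call at 0.15 µM was lost with library totals (-0.38, adjusted p = 0.0904).

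Neighbouring doses were compared next. From 0.15 to 0.25 µM HMGB1 alone was called (-0.57 ± 0.16, adjusted p = 0.0297), beside 12.3% of all genes, with 7.32% called lower and 4.96% called higher. No member was both called and over 2-fold lower or higher, beside 1.39% and 2.96% of all genes. Ranges did not overlap for 5 of the 10 genes, beside 30.6% of all genes. The call of HMGB1 was lost without replicate 1, 2 or 3 of the 0.15 µM group (-0.57, -0.56 and -0.54, adjusted p = 0.0732, 0.0797 and 0.0714). It was also lost without replicate 2 or 3 of the 0.25 µM group (-0.62 and -0.45, adjusted p = 0.0520 and 0.121). HMGN3 (-0.48, adjusted p = 0.0285) and HMGN5 (-0.59, adjusted p = 0.0271) were called without replicate 3 of the 0.5 µM group, and HMGN5 (-0.81, adjusted p = 0.0171) without replicate 1 of the 0.25 µM group.

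From 0.25 to 0.5 µM 7 of the 10 genes were called in the main fit, which has no pairing, beside 30.4% of all genes. HMGN2 was higher and 6 genes were lower, beside 14.4% and 16% of all genes. Ranges did not overlap for 9 genes (all genes 38.6%), and 1 gene, HMGN4, was called and over 2-fold lower (all genes 9.37%), with 0 over 2-fold higher (all genes 6.86%). The lower genes were HMGN4 (-1.28 ± 0.12, adjusted p = 3.13e-07), HMGB2 (-0.88 ± 0.14, adjusted p = 0.000103), HMGB1 (-0.81 ± 0.16, adjusted p = 0.000909), HMGN3 (-0.69 ± 0.18, adjusted p = 0.00575), HMGN5 (-0.62 ± 0.20, adjusted p = 0.0231) and HMGB3 (-0.52 ± 0.18, adjusted p = 0.0386). HMGB3 and HMGN5 were no longer called without both libraries that lie apart (-0.43 and -0.54, adjusted p = 0.0712 and 0.0729). HMGB3 also lost its call without replicate 1 or 2 of the 0.25 µM group (adjusted p = 0.138 and 0.0860), without replicate 2 or 3 of the 0.5 µM group (adjusted p = 0.0687 and 0.141) and without untreated replicate 1, 2 or 3 (adjusted p = 0.0508, 0.0509 and 0.0519). HMGN5 lost its call without replicate 1 of the 0.25 µM group (adjusted p = 0.155) or replicate 2 or 3 of the 0.5 µM group (adjusted p = 0.0606 and 0.0695).

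HMGA1 was not called in this step (0.34 ± 0.26, adjusted p = 0.360). It was called higher with the replicate number as a block in the 6 libraries compared (0.31, adjusted p = 0.0133), without replicate 3 of the 0.5 µM group (0.62, adjusted p = 0.0265) and without both libraries that lie apart (0.38, adjusted p = 0.0444).

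From 0.5 to 1 µM edgeR called 0 of the 10 genes, with 0 at an unadjusted p under 0.05, and DESeq2 also called 0, beside 0% of all genes in edgeR. Ranges did not overlap for HMGA2 and HMGN1, 2 of the 10, beside 5.63% of all genes. The log2 changes of the members ran from -1.15 for HMGA2 to 0.13 for HMGB2. Between 0.15 and 1 µM 7 genes were called and 7 did not overlap, beside 44.5% and 58.7% of all genes. HMGN2 was higher, beside 21.5% of all genes. HMGN4 (-1.36 ± 0.12), HMGN3 (-1.30 ± 0.18), HMGB1 (-1.29 ± 0.17), HMGN5 (-1.25 ± 0.20), HMGB2 (-1.11 ± 0.14) and HMGB3 (-0.90 ± 0.19) were lower, beside 23.1% of all genes. HMGA1 (0.02 ± 0.26) and HMGN1 (0.05 ± 0.12) differed by less than their errors.

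Levels of different genes were compared per kb of merged exons. In untreated cells HMGA1 stood first at 1220.2 ± 91.4 CPM per kb (SD, n = 3), followed by HMGN2 at 223 ± 24.0, HMGB2 at 132 ± 13.1, HMGB1 at 109.5 ± 7.80 and HMGN1 at 93.0 ± 3.70. Below them came HMGN4 at 46.9 ± 2.08, HMGN5 at 44.7 ± 5.18, HMGN3 at 31.1 ± 4.85, HMGB3 at 18.2 ± 0.855 and HMGA2 at 0.00266 ± 0.00271 CPM per kb. In that order only HMGN4 and HMGN5 had library ranges that overlapped. At 1 µM the order was HMGA1 (623 ± 34.0 CPM per kb), HMGN2 (131 ± 9.67), HMGN1 (59.3 ± 1.83), HMGB2 (29.5 ± 1.25), HMGN4 (25.6 ± 3.00), HMGN3 (15.4 ± 0.636), HMGB1 (15.1 ± 0.859), HMGN5 (11.3 ± 1.83), HMGB3 (6.40 ± 0.573) and HMGA2 (0.00620 ± 0.00140). There HMGB2 overlapped with HMGN4, and HMGN3 with HMGB1. By this length HMGB1 stood at rank 4 in untreated cells and at rank 7 at 1 µM. Per kb of the main (MANE) transcript, which leaves out HMGN3, it stood at rank 5 and at rank 6. By the deposited FPKM HMGB1 was at rank 7 in both groups.

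The order depends on the length used. The merged exons of HMGN1 hold 5042 bases and its main (MANE) transcript 1271 bases, and per kb of the main transcript HMGN1 (369 ± 14.7 CPM per kb) and HMGN2 (367 ± 39.4 CPM per kb) stood side by side in untreated cells. The FPKM deposited by the authors divide by the genomic span, introns included, which is 160894 bases for HMGB1 and 3057 bases for HMGB2. They put HMGB1 at 4.19 ± 0.219 FPKM and HMGB2 at 83.1 ± 7.47 FPKM in untreated cells, where HMGB1 had 64048 counts and HMGB2 24141.

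Summed per kb, the 10 genes were at 1919 ± 117 CPM per kb in untreated cells and at 1007 ± 101, 780.2 ± 167, 879 ± 225 and 916 ± 29.7 CPM per kb in order of dose. The HMGB genes made up 13.6% ± 1.26 of this sum (SD, n = 3) in untreated cells, 11.2% ± 1.44 with 0.15 µM, 10.9% ± 1.38 with 0.25 µM, 5.53% ± 0.781 with 0.5 µM and 5.56% ± 0.0287 with 1 µM. The highest HMGB share in any library of the 2 high doses was 6.18%, and the lowest in any other library was 10.0%. The HMGA share was 63.6% ± 2.03 in untreated cells and 60.7% ± 2.92, 57.8% ± 8.15, 64.6% ± 9.54 and 67.9% ± 1.56 in order of dose. The HMGN share was 22.9% ± 0.948 in untreated cells and 28.1% ± 1.57, 31.2% ± 6.77, 29.9% ± 8.91 and 26.5% ± 1.57 in that order. Within the HMGN genes HMGN4 made up 2.45% ± 0.155 of the family sum in untreated cells, 7.97% ± 2.01 with 0.25 µM and 2.79% ± 0.358 with 1 µM. All these shares depend on the length used, here merged exons, which count 5042 bases for HMGN1 beside 1271 in its main transcript.

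**Figure D3:**
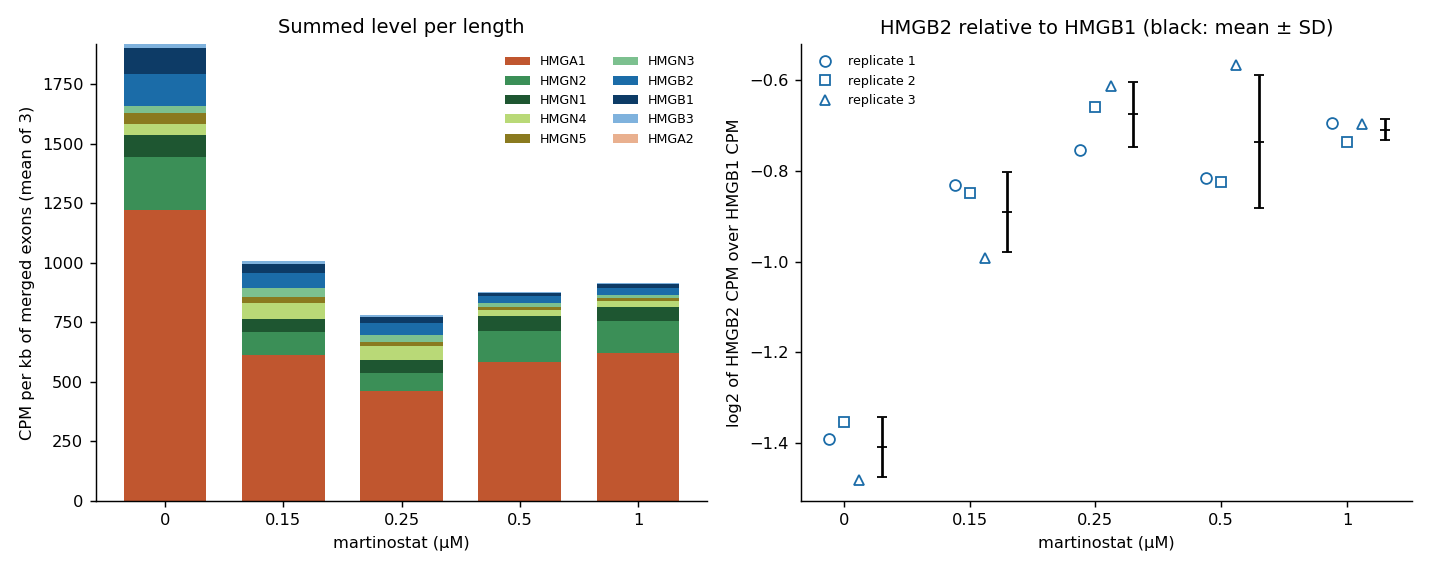
Left, CPM per kb of merged exons (mean of 3 libraries, linear axis from 0) stacked over the HMG genes by martinostat concentration (µM): the total is 1919 in untreated cells, 780.2 with 0.25 µM and 916 with 1 µM. Right, log2 ratio of HMGB2 to HMGB1 CPM in each library with the mean ± SD of 3, where all treated libraries lie above the untreated ones.

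Several HMG genes have many processed pseudogenes, copies of the spliced mRNA that a short read may match as well as the parent. The table listed 157 pseudogenes named after the members, 48 for HMGB1, 38 for HMGN2, 32 for HMGN1, 29 for HMGB3, 8 for HMGA1 and 1 each for HMGB2 and HMGN3, and 110 of the 157 had a count. Averaged over 3 libraries, their summed counts were 15.6% of the HMGB1 count in untreated cells and 16.4% at 1 µM. For HMGN2 they were 12.2% and 11.0%, for HMGN1 2.88% and 2.91%, and for HMGA1 0.620% and 0.685%. The copy with most counts was called lower at every dose in these 4 cases, with log2 fold changes at 1 µM of -2.99 for HMGB1P5, -0.96 for HMGN2P5, -0.73 for HMGN1P38 and -1.18 for HMGA1P2, beside -2.86, -0.77, -0.65 and -0.97 for the parents.

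The pseudogenes of HMGB3 went the other way. They were 1.12% of the HMGB3 count in untreated cells and 4.38%, 7.94%, 15.8% and 11.6% in order of dose. HMGB3P24 was called higher at every dose, from 0.280 ± 0.153 CPM in untreated cells to 1.92 ± 0.187 CPM with 0.5 µM (log2 fold change 2.77 ± 0.40). It passed the low-count filter only through treated libraries, so filter and calls rest on the same counts. HMGB2P1, with 29 counts in all, and HMGN3P1, with 2, were not tested. Whether parents and copies shared reads was not tested. With the pseudogene counts added to the parents every call against untreated cells was kept, and the call of HMGB3 from 0.25 to 0.5 µM was lost (-0.43, adjusted p = 0.0692).

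**Figure D4:**
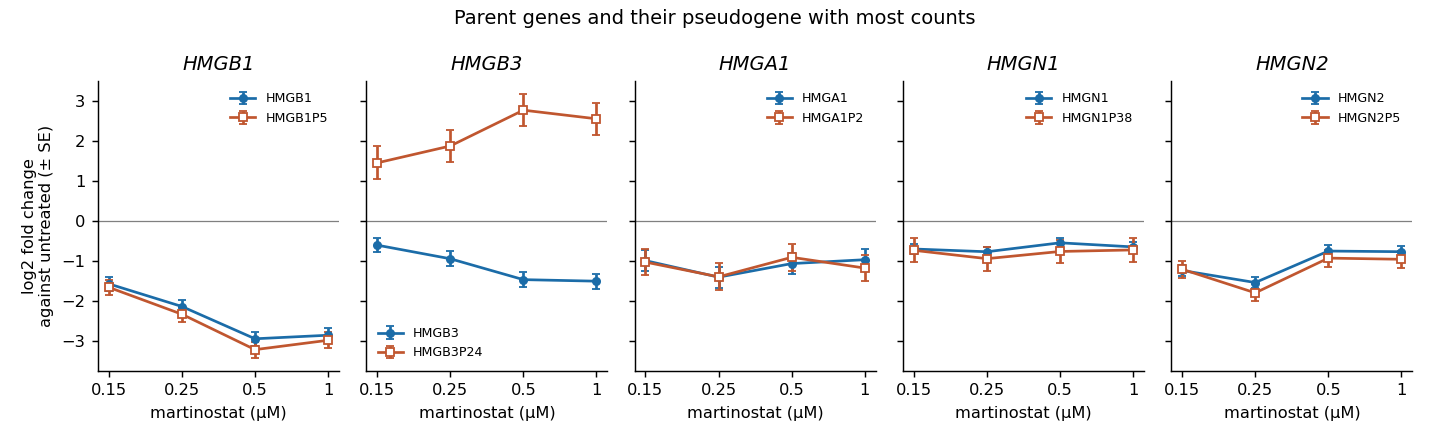
Log2 fold change against untreated cells (± SE) by martinostat concentration (µM) for 5 HMG genes (filled circles) and the pseudogene of each with most counts (open squares). HMGB1P5, HMGA1P2, HMGN1P38 and HMGN2P5 lie below 0 with their parents, and HMGB3P24 is at 2.77 with 0.5 µM where HMGB3 is at -1.47. HMGB3P24 passed the low-count filter only through treated libraries.

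Outside the cell HMGB1 acts through receptors and partners, most of which were scarce in K562 cells. Of 14 such genes 10 were tested, and in order of dose 6, 7, 7 and 7 were higher and 0, 1, 2 and 3 lower, with a median log2 fold change of 2.48 at 1 µM beside 0.32 for all genes. TLR2 and CXCR4 had 0 counts in the untreated libraries, and HAVCR2 and TREM1 had 2 each. These genes passed the low-count filter only through treated libraries and could not be called lower, yet they are part of the counts of higher genes and of the median. The same holds for SDC1, with 24 counts in the untreated libraries, and for RIPK3, TOX, TOX2, TCF7L1 and CD8A in the lists below. It may hold for other listed genes with few counts in untreated cells. Of all tested genes 31.9%, 37.4%, 39.4% and 38.8% were called higher and 19.4%, 24.8%, 27.6% and 27.5% lower at these doses, so the 3 of 10 called lower at 1 µM are near that share. CD24, a surface protein that binds HMGB1 and restrains the signal, was at 156 ± 9.97 CPM (SD, n = 3) in untreated cells, 1743 with 0.15 µM, 1795 with 0.25 µM and 664 CPM with 1 µM. SDC1, a heparan sulphate proteoglycan, rose from 0.315 to 6.12 CPM (4.26 at 1 µM). CXCR4, which binds HMGB1 joined to CXCL12, and the Toll-like receptor TLR2 had 0 counts in untreated cells and were at least 54.2-fold and at least 26.8-fold higher at 1 µM, against a floor of 3 counts over the group, at 2.15 and 1.06 CPM. AGER, which encodes the receptor RAGE, was at 6.80 ± 1.35 CPM and was called lower only at 1 µM (-0.92, adjusted p = 0.0215), and TLR4, with 11 counts in all, was not tested. The adaptor MYD88 fell from 61.2 ± 0.734 to 11.2 CPM (-2.45), and thrombomodulin, THBD, which binds HMGB1, from 4.54 ± 0.568 to 0.431 CPM (-3.38).

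Among genes that modify, export or release HMGB1, some were called higher and others lower. Of 21 genes 20 were tested, and 5, 5, 5 and 4 were higher and 8, 8, 10 and 9 lower in order of dose, with a median of -0.10 at 1 µM. At 1 µM all genes gave 66.2% called in either direction, 38.8% higher and 27.5% lower. The nuclear exporter XPO1 was lower at every dose, from 677 ± 48.9 to 352 CPM at 1 µM (-0.94), and so was PARP1, the poly(ADP-ribose) polymerase, from 802 ± 45.6 to 356 CPM (-1.17). The acetyltransferase KAT2A fell by 2.42 on the log2 scale at 1 µM. Its relative KAT2B (PCAF) was lower at 0.5 and 1 µM (-0.93 and -0.87) and not called at the lower doses (0.14 and 0.48). GSDME, a pore-forming gasdermin, fell by 2.26 at 1 µM. RIPK3, the kinase of necroptosis, had 0 counts in untreated cells and was at least 28.9-fold higher at 1 µM, at 1.14 CPM. NINJ1, which ruptures the membrane of dying cells, rose by 1.04 at 1 µM.

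The SET complex, a DNA repair assembly that holds HMGB2 beside the histone chaperones SET and ANP32A, was lower. Of 7 genes 6 were tested, HMGB2 among them, and 5, 6, 6 and 6 were lower and 0 higher in order of dose, with a median of -2.48 at 1 µM. Over all genes 19.4%, 24.8%, 27.6% and 27.5% were called lower and 31.9%, 37.4%, 39.4% and 38.8% higher. SET went from 2605 ± 137 to 587 CPM at 1 µM (-2.15), ANP32A from 437 ± 33.6 to 55.5 CPM (-2.98), ANP32B from 973 ± 55.7 to 71.1 CPM (-3.77) and NME1 from 201 ± 21.9 to 29.0 CPM (-2.79). TREX1 was listed at 0 counts and was not tested.

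HMGN proteins and linker histones compete for nucleosomes. Of 7 linker histone genes 5 were tested. All 5 were called higher at 0.5 and at 1 µM, beside 39.4% and 38.8% of all genes, with a median of 1.22 at 1 µM. At 0.15 and 0.25 µM 0 were higher, beside 31.9% and 37.4% of all genes. H1-4 alone was lower at these low doses (-1.02 and -1.08), beside 19.4% and 24.8% of all genes. H1-2 rose from 1551 ± 90.8 to 3289 CPM at 1 µM (1.08). At 0.5 µM H1-2 was at 3270 ± 1690 CPM, and its library range overlapped the untreated one. H1-5 rose by 2.21, H1-10 by 1.27, H1-4 by 1.22 and H1-3 by 1.04 at 1 µM. H1-1 had 54 counts in all and was not tested. Most mRNAs of histones made in S phase lack a poly(A) tail, and these libraries were selected for poly(A), so such a level is that of the part captured.

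The list of other HMG-box genes had both kinds of call. Of 29 listed genes 26 were tested, and 4, 6, 7 and 7 were higher and 12, 14, 15 and 15 lower in order of dose, with a median of -0.66 at 1 µM. The shares over all genes at that dose were 38.8% higher and 27.5% lower. SSRP1, the HMG-box subunit of the histone chaperone FACT, went from 682 ± 59.2 to 177 CPM (-1.94), and its partner SUPT16H, listed with it, from 341 ± 19.5 to 129 CPM. TFAM, which packages mitochondrial DNA, went from 234 ± 21.3 to 69.0 CPM (-1.76), and UBTF, a factor of the ribosomal RNA genes, fell by 2.56. The Wnt factor LEF1 fell by 3.11. CAPN15, a calpain that is on the list but has no HMG box, fell by 3.26. TOX2 had 2 counts in the untreated libraries and 968 at 1 µM, a ratio of 428 (exact 95% interval 118 to 3540.0). TCF7L1, another Wnt factor, rose from 0.107 to 11.0 CPM. TOX had 0 counts in untreated cells and was at least 3.54-fold higher at 1 µM, at 0.139 CPM.

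The let-7 microRNAs hold back HMGA2. Of 12 genes of that axis 11 were tested, and 1, 1, 3 and 2 were higher and 5, 6, 6 and 6 lower in order of dose, with a median of -0.49 at 1 µM, where 38.8% of all genes were higher and 27.5% lower. LIN28B, which blocks let-7 maturation, went from 269 ± 27.4 to 14.4 CPM at 1 µM (-4.22, adjusted p = 1.11e-12) and was lower already at 0.15 µM (-1.84). Its relative LIN28A, which also blocks let-7, was at 6.08 ± 0.717 CPM in untreated cells and was called higher at 0.15 µM (1.28, adjusted p = 1.44e-05) and 0.25 µM (1.36, adjusted p = 4.41e-06). It was not called at 0.5 µM (-0.14) or 1 µM (-0.03). The RNA-binding protein IGF2BP1 went from 708 ± 32.6 to 26.8 CPM (-4.72), and its relative IGF2BP3 fell by 2.81. ARID3B rose by 1.42 and the terminal uridylyltransferase TUT7 by 0.38. Mature microRNAs are not captured by such libraries.

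**Figure D5:**
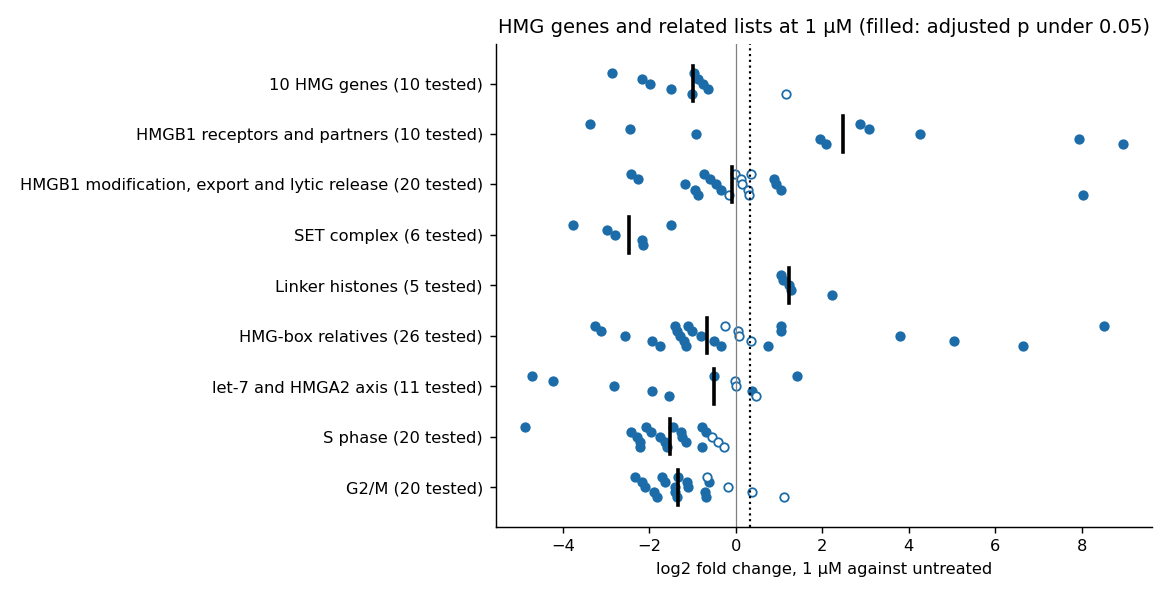
Log2 fold change at 1 µM against untreated cells for the HMG genes and the related lists, with 1 point per tested gene (filled when called), a black bar at the list median and a dotted line at the median of all tested genes, 0.32. The HMG genes have a median of -0.99, the SET complex one of -2.48 and the linker histones one of 1.22. HMGB2 is a member of both the HMG genes and the SET complex.

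Many genes of proliferation were also lower in treated cells. Of 20 S-phase genes 15, 20, 18 and 17 were lower and 0 higher in order of dose, and their summed level was 6442 to 6976 CPM in untreated libraries, 3360.0 to 3827 with 0.15 µM, 1401 to 1928 with 0.25 µM, 1312 to 2589.8 with 0.5 µM and 2215 to 2418 with 1 µM. Of 20 G2/M genes 15, 17, 17 and 16 were lower and 0 higher, with summed levels of 4325 to 4729 CPM in untreated libraries and 1790.3 to 2153 CPM with 1 µM. Beside both lists, 19.4%, 24.8%, 27.6% and 27.5% of all genes were called lower and 31.9%, 37.4%, 39.4% and 38.8% higher. PCNA went from 310.4 ± 14.0 to 114 CPM at 1 µM (-1.45), MKI67 from 469.6 ± 13.8 to 152 CPM (-1.63) and TOP2A from 597 ± 22.7 to 389 CPM (-0.62). The lowest at 1 µM were TYMS (-4.87), MCM6 (-2.42) and MCM4 (-2.29) in S phase and AURKA (-2.34), PLK1 (-2.18) and CCNB1 (-2.10) in G2/M. CDKN1A, the cell cycle inhibitor p21, rose from 3.90 ± 1.08 to 356 CPM (6.51). UBE2C and NUSAP1 had 127 and 174 counts over all libraries. The part of these shifts in the values of the HMG genes was not tested.

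The markers of the K562 line moved as well: 0 were higher and 3, 6, 9 and 9 of 10 lower in order of dose, with KLF1 at -6.83 and GATA1 at -4.12 at 1 µM. Among all genes 31.9%, 37.4%, 39.4% and 38.8% were called higher and 19.4%, 24.8%, 27.6% and 27.5% lower. Of the markers of other cell types 10 were tested, and 6, 6, 6 and 5 were higher and 1, 1, 3 and 3 lower, beside 38.8% and 27.5% of all genes at 1 µM, with a summed level of 161 to 179 CPM in untreated libraries and 337 to 529 CPM at 1 µM. COL1A1 rose from 4.36 ± 0.954 to 398 CPM (6.51), PDGFRB by 4.72, and CD8A, with 0 counts in untreated cells, was at least 7.37-fold higher. EPCAM (-2.78), CD3D (-1.03) and COL1A2 (-0.96) were lower. The part of these shifts in the results above was not tested either.

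Across the 15 libraries, which fall into 5 dose groups and share their scaling, the genes of at least 10 CPM whose log2 CPM was most like that of HMGB1 were PA2G4 (Pearson r = 0.997), MRPL9 (r = 0.996) and SUMO3 (r = 0.995), out of 10128 genes compared. The nearest to HMGB2 were HMGB1 itself (r = 0.991), HEBP2 (r = 0.991) and DERL1 (r = 0.991). For HMGA2, with few counts, the nearest were PPP1R3B (r = 0.819), C14orf119 (r = 0.810) and ZNF691 (r = 0.807). Among the members the 6 pairs of HMGB1, HMGB2, HMGB3 and HMGN5 ran from r = 0.947 to 0.991. HMGN1 with HMGN2 gave r = 0.915, HMGN3 with HMGN4 r = 0.884, and HMGN2 with HMGN4 r = -0.378.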

How the data were processed

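Poly(A) RNA of 15 K562 libraries was sequenced as directional paired ends. Per the methods of the study and the labels, reads were trimmed with Trim Galore 0.6.10 and Trimmomatic, aligned to hg38 with HISAT2 2.2.1, handled with SAMtools 1.21 and assigned to genes by featureCounts 1.5.3. The settings for strand and for reads that match several places are not given in the sources used here. The authors deposited raw counts per gene and, per library, FPKM values, whose implied length was the genomic span for 9 of 10 members.

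Raw counts entered edgeR 4.0.16 (R 4.3.3) with filterByExpr, TMM and the quasi-likelihood test, in 1 fit of all libraries with group as the only term. Alternatives were DESeq2 1.42.0, limma 3.58.1 on log2(FPKM + 1) or log2(FPKM + 0.1), other scalings and filters, only the libraries compared, each library left out, and a replicate block. Leaving out both libraries that lie apart, adding pseudogene counts to parents, and the block within the 6 libraries of 0.25 and 0.5 µM were chosen after seeing the data. The fit was tested on simulated counts with known changes.

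Positions came from GENCODE 44. Replicates correlated at r = 0.957 to 0.987 across genes, and every pair differed by more than sampling noise (lowest chi-square per df 6.49). The labels do not say that replicate numbers pair. Deviations of same-numbered libraries correlated at 0.266, 0.268 and 0.579 between 0.25 and 0.5 µM, and at 0.0918 or less in all other pairs of groups. Deviations within a group cancel out, so a shift shared by both libraries that lie apart enters each of these values. Whether the 0.25 and 0.5 µM libraries were paired is thus not settled. The main fit ignores any pairing, and the block within the 6 libraries was run beside it. The replicates are labelled biological and described by the study as independent experiments, all in 1 cell line, and p-values measure the spread between these libraries.

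The members, related lists and tests were chosen with earlier results of these data known. Named were the 10 members, of each list up to 3 called genes at either end at 1 µM, fixed genes (AGER, TLR2, TLR4, XPO1, KAT2B, SSRP1, TFAM, LIN28B, IGF2BP1, SET, ANP32A, MKI67, TOP2A, PCNA and CDKN1A), the pseudogene with most counts per parent, and the 3 genes most like HMGB1, HMGB2 and HMGA2. CD24, SUPT16H, LIN28A and genes named for their low counts were chosen after their values were seen. Some genes that the rule names are not reported here.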

Additional observations from a re-analysis of the deposited data

How the results depend on the processing

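Of 50 called values 38 were kept in every alternative run for them, and 0 called values changed sign. HMGA2 at 0.25 µM is among the 38 but had 25 alternatives, where HMGB1 had 27. It failed the filter with 10 counts required in every library and with only the libraries compared, so these settings gave no value for it. The others were HMGB3 and HMGN5 at 0.15 µM, HMGN1 and HMGN4 at 0.25 µM, HMGN1 and HMGN3 at 0.5 µM, HMGN3 at 1 µM (lost only by limma on log2(FPKM + 1), at -0.29, adjusted p = 0.0559), HMGB1 from 0.15 to 0.25 µM, HMGB3, HMGN3 and HMGN5 from 0.25 to 0.5 µM, and HMGN2 from 0.15 to 1 µM. The number of called HMG genes stayed within 1.5 times the reported one in 6 of the 8 comparisons. From 0.15 to 0.25 µM the 1 call became 0 with RLE size factors and with only the libraries compared, 2 with no low-count filter, 2 without both libraries that lie apart, and 0 to 3 when single libraries were left out. From 0.25 to 0.5 µM the 7 calls became 4 with only the libraries compared. With the replicate block over all libraries the counts were 8, 9, 9 and 9 against untreated cells, and 1, 7, 0 and 7 from 0.15 to 0.25, 0.25 to 0.5, 0.5 to 1 and 0.15 to 1 µM. The block within the 6 libraries of 0.25 and 0.5 µM gave 8, HMGA1 being added, and the paired exact test of the ratios gave p = 0.25, the smallest that 3 pairs allow.

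Uncalled values changed sign as follows, and the cause was not tested. HMGN3 at 0.25 µM was 0.348 with library totals, 0.234 with TMM restricted to genes over 10 CPM, 0.0962 with 10 counts required in every library, and 0.177 and 0.301 by limma with 1 and 0.1 FPKM added. From 0.15 to 0.25 µM HMGN1 was 0.0969, 0.0894, 0.0409, 0.0913 and 0.0932 in the same order, 0.0223 with RLE and 0.0207 by DESeq2. HMGN4 in that step was 0.0399 with library totals, 0.0307 with the restricted TMM, and 0.0320 and 0.0335 by limma. From 0.5 to 1 µM without both libraries that lie apart HMGB1 was -0.0809, HMGA1 -0.175 and HMGN3 0.0925. With single libraries left out, the same step ran from -0.0828 to 0.262 for HMGB1, -0.210 to 0.120 for HMGB3, -0.181 to 0.303 for HMGA1, -0.0755 to 0.0214 for HMGN2, -0.254 to 0.0877 for HMGN3, -0.0521 to 0.106 for HMGN4 and -0.169 to 0.0996 for HMGN5, and the change from 0.15 to 1 µM from -0.0948 to 0.153 for HMGA1 and -1.44 to 0.423 for HMGA2. Depth limits HMGA2 most, with 98 counts over 15 libraries.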
